A study of Mus musculus with 36 samples.

Results

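The genes described here are 7 components of the aryl hydrocarbon receptor pathway, Cyp1a1, Cyp1b1, Ahrr, Tiparp, Ahr, Arnt and Aldh3a1, which were found by their symbols in the deposited count tables. All 7 were listed in both tables, among 18116 genes in the female and 18291 genes in the male table, of which 17716 were common to both. RNA came from the left lungs of 36 C57BL/6 mice that were 8 weeks old at the first dose, divided by sex and treatment into 6 groups of 3 females and 3 males. The groups were saline, oil (MC252 crude oil), the dispersants Corexit 9500 and Corexit 9527, and each dispersant mixed with oil (9500+oil and 9527+oil). Every mouse received 50 µL of fluid into the airways on days 0, 7 and 13, at 0.1 of the strength of the saline-accommodated fraction in the treated groups, and was killed on day 14. Counts of females and males were deposited in separate tables. Mice were numbered 1 to 18 within a sex, with saline as 1 to 3, oil as 4 to 6, 9500 as 7 to 9, 9527 as 10 to 12, 9500+oil as 13 to 15 and 9527+oil as 16 to 18.

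The aryl hydrocarbon receptor, encoded by Ahr, is a transcription factor that waits in the cytoplasm with chaperones until it binds a ligand, of which polycyclic aromatic hydrocarbons such as those of crude oil and combustion products are the classical examples. It then enters the nucleus, pairs with the partner protein encoded by Arnt, and binds xenobiotic response elements near its target genes. Cyp1a1 and Cyp1b1, which encode monooxygenases that oxidize aromatic hydrocarbons, Aldh3a1, which encodes an aldehyde dehydrogenase, and Ahrr and Tiparp, whose products repress the receptor, are textbook targets.

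On the GRCm38 annotation (GENCODE M21) Cyp1a1 lies at chr9:57687928-57703824, Cyp1b1 at chr17:79701537-79715061, Ahrr at chr13:74211118-74292331, Tiparp at chr3:65528410-65555518, Ahr at chr12:35497974-35535038, Arnt at chr3:95434388-95497240 and Aldh3a1 at chr11:61207537-61218421. The RefSeq promoter table (GRCm38.p6) held a window for 5 of the 7 genes, with none for Ahr and Aldh3a1. The bases just upstream of the RefSeq starts of Cyp1a1 (chr9:57697363-57697612, plus strand) and Cyp1b1 (chr17:79715062-79715311, minus strand) are shown because these genes were high in the same male mice, with the core of the response element in capitals, GCGTG on the printed strand or its complement CACGC on the other. The Cyp1a1 window lies within the GENCODE gene, which starts farther upstream.
Cyp1a1: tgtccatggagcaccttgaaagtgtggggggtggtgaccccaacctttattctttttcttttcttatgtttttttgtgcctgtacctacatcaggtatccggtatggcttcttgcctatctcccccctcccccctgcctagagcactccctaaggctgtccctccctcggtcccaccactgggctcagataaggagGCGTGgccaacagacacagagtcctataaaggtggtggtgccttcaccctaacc
Cyp1b1: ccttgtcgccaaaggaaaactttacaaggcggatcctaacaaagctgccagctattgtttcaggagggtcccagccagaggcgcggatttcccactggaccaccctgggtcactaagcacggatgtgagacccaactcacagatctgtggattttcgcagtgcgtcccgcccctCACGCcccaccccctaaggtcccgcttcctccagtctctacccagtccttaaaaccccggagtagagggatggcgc
Each window held the core 1 time, starting at -54 in Cyp1a1 and at -76 in Cyp1b1 relative to the RefSeq start. The core was found 3 times in the 250 bases before the start of Ahrr, 1 of them within the longer TNGCGTG, and at least once before the starts of Tiparp and Arnt. Over 32851 windows of the same length, 28.2% held the core on either strand and 4.1% held TNGCGTG, and a match is a description only.

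Total counts ran from 17501716 to 30014986 per library. The sum of 4 markers of alveolar type 2 cells, which are defining cells of lung, was 8093 to 21238 CPM (counts scaled to library size, with TMM factors) in the female and 12339 to 19605 CPM in the male libraries. Mitochondrial genes held 5.27 to 11.3% of the counts in 32 libraries and 20.7 to 45.1% in the other 4, which were female (saline mouse 3, oil mouse 6, 9527 mouse 11 and 9500+oil mouse 14). In these 4 libraries GC-rich genes were also low against GC-poor genes, by a log2 ratio of -4.27 to -2.81 against -1.18 to 0.395 in the others. Fold changes of the receptor pathway genes against saline in females, where the saline group holds 1 of these libraries, are given with and without them.

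Per kilobase of exons, the median levels of male lungs ran from Ahr (14.1 CPM per kb) through Arnt (11.8), Aldh3a1 (8.25), Tiparp (7.09), Cyp1a1 (6.80 CPM per kb) and Cyp1b1 (2.09) down to Ahrr (0.0427 CPM per kb). The ranges over the 18 males overlapped between all neighbours in this order except Cyp1b1 and Ahrr. In female lungs the order of the medians was Ahr (14.8 CPM per kb), Arnt (11.7), Tiparp (9.85), Aldh3a1 (5.60), Cyp1b1 (2.03), Cyp1a1 (1.48) and Ahrr (0.0294 CPM per kb), and all neighbours overlapped. The genes of the receptor and its partner were thus the highest of the 7 per kilobase by median in both sexes, and the repressor gene Ahrr was the lowest.

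None of the 7 genes passed an adjusted p of 0.05 in any of 29 comparisons with edgeR's quasi-likelihood test. At an unadjusted p under 0.05, at least 1 of them stood in 12 comparisons, Cyp1a1 each time, and Aldh3a1 was the only other one, in 1 of these. DESeq2 called a member in 3 comparisons and limma voom in 1. The shares of all genes given below are those of edgeR, so these calls stand without a background of their own. All comparisons with saline share the same saline mice. Of all genes tested in female mice, the share called at an adjusted p under 0.05 was 0% in each of the 7 comparisons of 2 groups, 0.0193% for oil present against absent and 0.0129% over the 6 groups. At an unadjusted p under 0.05 it was 0.108% for oil, 0.364% for 9500, 0.267% for 9527, 0.155% for 9500+oil and 1.1% for 9527+oil against saline, 0.899% for 9500+oil against 9500, 6.65% for 9527+oil against 9527, 2.4% for oil present against absent and 1.35% over the 6 groups. In male mice the adjusted share was 0.00671% for oil, 0.00662% for 9500, 0.114% for 9527, 0% for 9500+oil and 0.00669% for 9527+oil against saline, 0% for 9500+oil against 9500, 0.0134% for 9527+oil against 9527, 0.0193% for oil present against absent and 0.135% over the 6 groups. The unadjusted share was 8.21%, 6.35%, 13.7%, 9.22% and 5.54% in the same order against saline, 4.47% for 9500+oil against 9500, 11.6% for 9527+oil against 9527, 11.8% for oil present against absent and 10.4% over the 6 groups. The count of members is therefore to be read against a background of up to 13.7% of genes at the unadjusted threshold.

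In female lungs, Cyp1a1 was highest in the groups that received oil. It stood at 4.03, 1.27 and 3.74 CPM in saline mice 1 to 3, at 3.97, 6.45 and 5.11 CPM in oil mice, at 1.52, 3.85 and 4.24 CPM in 9500 mice, and at 3.51, 3.08 and 3.27 CPM in 9527 mice. It stood at 7.98, 6.16 and 7.02 CPM in 9500+oil mice and at 66, 5.38 and 9.45 CPM in 9527+oil mice. The 3 mice of each mixture lay above all saline mice and above all mice of the dispersant alone, whereas oil alone overlapped saline, and 9527+oil mouse 16 lay 6.99-fold above the highest other mouse of its group. Oil females held the markers of club cells at 22364 to 27965 CPM summed, above saline (8588 to 21162 CPM). Summed markers of other cell types also set the 9527+oil females apart. Those of endothelium were 3961 to 4477 CPM in them, above saline (2466 to 3927 CPM) and 9527 (2716 to 2974 CPM), and those of macrophages were 171 to 180 CPM, below saline (201 to 352 CPM) and 9527 (294 to 349 CPM). Markers of ciliated cells and heart muscle were also higher than in 9527 with no overlap, and the part of these markers in the level of Cyp1a1 was not tested.

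Against saline, the log2 fold change of female Cyp1a1 was 0.74 for oil (SE 0.63, 95% interval -0.79 to 2.26), 1.18 for 9500+oil (SE 0.61, -0.28 to 2.65) and 3.16 for 9527+oil (SE 1.11, 0.44 to 5.89). For the dispersants alone it was 0.10 for 9500 (SE 0.76, -1.71 to 1.90) and 0.13 for 9527 (SE 0.69, -1.54 to 1.80). Adding oil to a dispersant gave 1.11 for 9500 (SE 0.49, -0.02 to 2.24) and 3.02 for 9527 (SE 0.98, 0.66 to 5.38). Over all 18 females, Cyp1a1 was higher by 1.65 where oil was present (SE 0.43, 0.73 to 2.56), with an unadjusted p of 0.00159 and an adjusted p of 0.758 in edgeR. The test over the 6 groups gave an unadjusted p of 0.00142 and an adjusted p of 1. Without 9527+oil mouse 16 the difference with oil present was 1.03 (SE 0.30), that of 9527+oil against saline 1.30 (SE 0.71) and that against 9527 alone 1.17 (SE 0.46). Without the 4 libraries of high mitochondrial share it was 1.72 (SE 0.53) with oil present, and no member was called in any of the 20 comparisons that held them. Against saline the values without them were 0.98 for oil (SE 0.57), 0.27 for 9500 (SE 0.71), 0.37 for 9527 (SE 0.56), 1.5 for 9500+oil (SE 0.52) and 3.38 for 9527+oil (SE 1.16). Adding oil then gave 1.20 for 9500 (SE 0.49) and 3.00 for 9527 (SE 1.03).

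**Figure D1:**
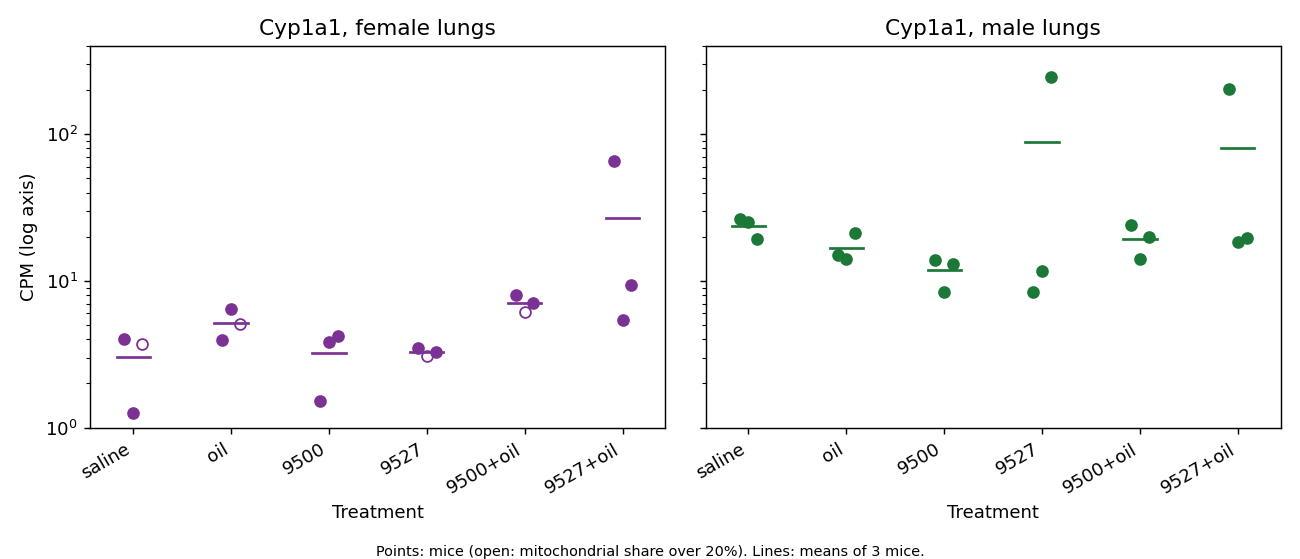
Cyp1a1 in CPM on a log axis for each mouse by treatment, females on the left and males on the right, with open points for libraries over 20% mitochondrial counts and lines for means of 3 mice. Female 9527+oil mouse 16 at 66 CPM, male 9527 mouse 12 at 247 CPM and male 9527+oil mouse 16 at 204 CPM stand far above the other mice of their groups.

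In male lungs the median of Cyp1a1 was 18.9 CPM against 4.13 CPM in females, and most treated mice lay at or below the saline mice. It stood at 26.4, 25.3 and 19.4 CPM in saline mice, at 15, 14.1 and 21.1 CPM in oil mice and at 14, 8.38 and 13 CPM in 9500 mice. It stood at 8.45, 11.7 and 247 CPM in 9527 mice, at 24, 14.2 and 19.9 CPM in 9500+oil mice and at 204, 18.5 and 19.5 CPM in 9527+oil mice. The 9500 mice and 2 of the 3 9527 mice lay below all saline mice, while 9527 mouse 12 and 9527+oil mouse 16 lay far above them. The saline mice of the sexes did not overlap, with means of 23.7 ± 3.77 CPM in males and 3.01 ± 1.52 CPM in females (SD, n = 3 each), a difference of level between sexes that was not tested.

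Against saline, the log2 fold change of male Cyp1a1 was -0.50 for oil (SE 0.18, 95% interval -0.91 to -0.09) and -1.01 for 9500 (SE 0.20, -1.47 to -0.55), the latter with an unadjusted p of 0.000801 and an adjusted p of 0.609 in edgeR against an adjusted p of 0.0028 in DESeq2. It was 1.90 for 9527 (SE 1.08, -0.56 to 4.35), -0.29 for 9500+oil (SE 0.20, -0.74 to 0.15) and 1.76 for 9527+oil (SE 0.85, -0.17 to 3.70). Adding oil gave 0.72 for 9500 (SE 0.24, 0.18 to 1.26) and -0.14 for 9527 (SE 1.33, -3.19 to 2.92), and oil present against absent gave 0.03 (SE 0.57, -1.18 to 1.24). The test over the 6 male groups gave an unadjusted p of 0.0321 and an adjusted p of 0.424. Single mice set the direction for Corexit 9527. Without mouse 12 the value for 9527 against saline was -1.22 (SE 0.20, edgeR adjusted p = 0.0325), and without mouse 16 that for 9527+oil against saline was -0.32 (SE 0.15). Without both, 9527+oil against 9527 was 0.90 (SE 0.19) and oil present against absent 0.38 (SE 0.14), after the mice were chosen on Cyp1a1 itself. Summed markers of other cell types moved with some of these groups. Those of endothelium, 3629 to 4154 CPM in male saline mice, were 3315 to 3603 CPM in 9500 and 3085 to 3167 CPM in 9527 mice, with no overlap, and those of club cells were 18503 to 23061 CPM in saline, 15366 to 20809 CPM in 9500 and 13907 to 16925 CPM in 9527 mice. Against 9500, 9500+oil mice held more of the endothelial markers (3805 to 4162 CPM) and less of those of fibroblasts (1372 to 1435 CPM against 1482 to 1604 CPM), with no overlap. Macrophage markers stood at 167 to 184 CPM in saline, 244 to 345 CPM in oil, 248 to 306 CPM in 9527 and 212 to 220 CPM in 9527+oil mice. The part of these markers in the level of Cyp1a1 was not tested.

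**Figure D2:**
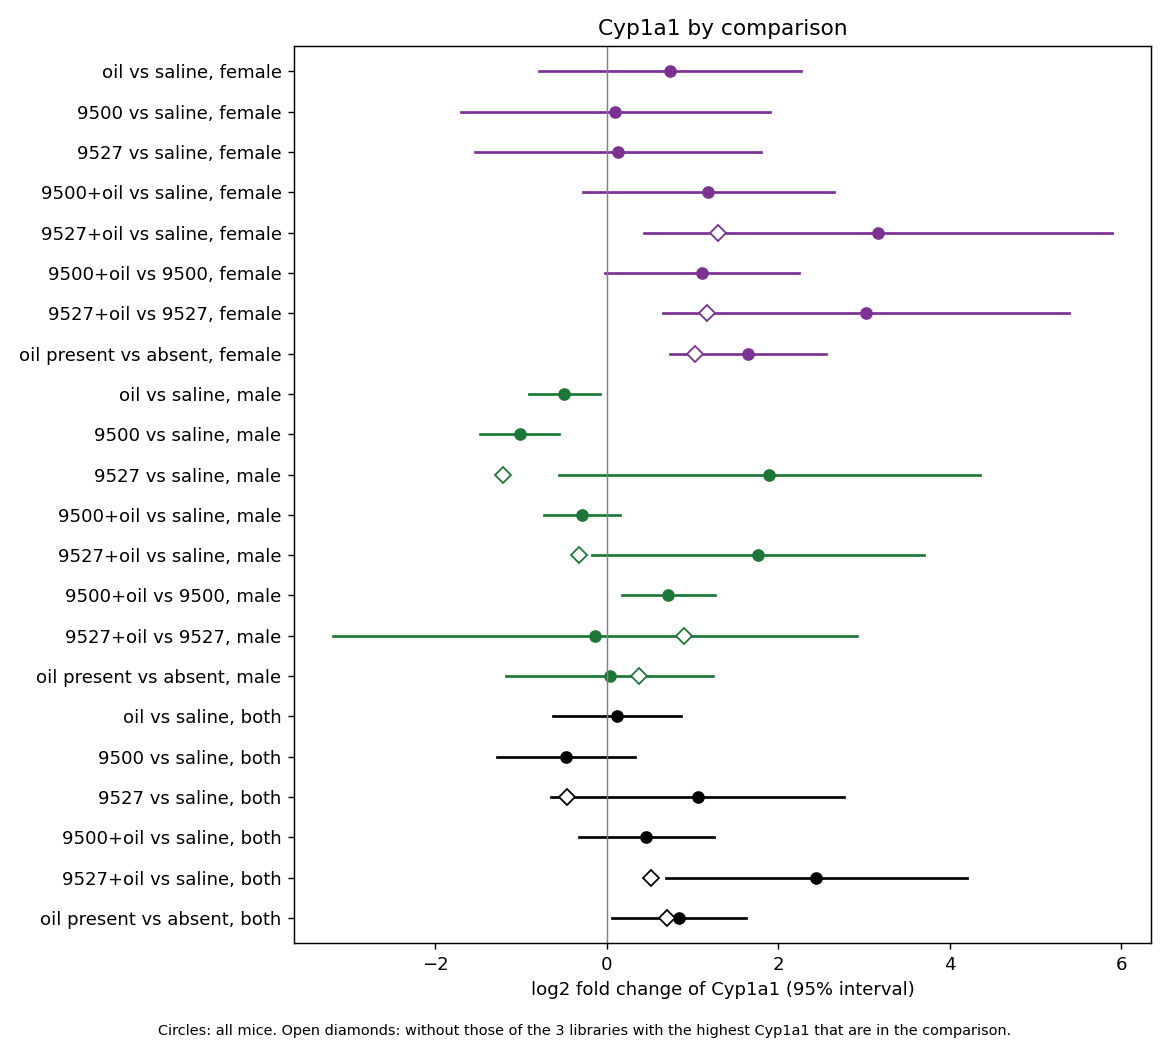
Log2 fold change of Cyp1a1 in each comparison (x axis) with its 95% interval, in purple for female, green for male and black for both sexes. Open diamonds give the value without those of the 3 highest libraries that enter the comparison, which turns the male 9527 value from 1.90 to -1.22 and the 9527+oil value over both sexes from 2.44 to 0.52.

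Over both sexes, with sex as a covariate, the log2 fold change of Cyp1a1 against saline was 0.12 for oil (SE 0.34, 95% interval -0.63 to 0.87), -0.47 for 9500 (SE 0.37, -1.28 to 0.33), 1.06 for 9527 (SE 0.78, -0.65 to 2.77), 0.46 for 9500+oil (SE 0.36, -0.33 to 1.25) and 2.44 for 9527+oil (SE 0.80, 0.68 to 4.20). With oil present it was higher by 0.84 (SE 0.38, 0.06 to 1.62). Without the 3 highest libraries the value for 9527+oil was 0.52 (SE 0.43) and that with oil present 0.71 (SE 0.16). Of all genes tested over both sexes, 0% were called at an adjusted p under 0.05 for oil, 9500, 9500+oil and 9527+oil, 0.0331% for 9527 and 0.0817% for oil present against absent, and 0.435%, 2.26%, 0.391%, 2.94%, 2.87% and 4.67% in that order had an unadjusted p under 0.05. The difference between the sexes in the response (male minus female) was -1.30 for oil (SE 0.58, -2.58 to -0.01) and -1.55 for 9500+oil (SE 0.57, -2.81 to -0.29), with edgeR unadjusted p of 0.0481 and 0.0202 and an adjusted p of 1 for each. It was -1.12 for 9500 (SE 0.68, -2.63 to 0.38), 1.76 for 9527 (SE 1.47, -1.49 to 5.02) and -1.42 for 9527+oil (SE 1.52, -4.79 to 1.95). Here 0% of genes were called in each test of the sexes, and 1.65% for oil, 0.726% for 9500, 0.352% for 9527, 0.509% for 9500+oil and 2.39% for 9527+oil had an unadjusted p under 0.05.

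The 3 mice with the highest Cyp1a1 were examined for the other members and for the other listed targets, without a test, since they were picked on Cyp1a1. Cyp1b1 stood at 22.1 CPM in male 9527 mouse 12 and 27.6 CPM in male 9527+oil mouse 16, the highest values of the male table, against at most 14.8 CPM in the other 16 males. Aldh3a1 was likewise highest of all males in these mice, at 27.7 and 25 CPM. In female 9527+oil mouse 16, Cyp1b1 was 17.4 CPM, below 2 libraries of high mitochondrial share, and Aldh3a1 was 14.2 CPM, within the range of the other females. Tiparp stood at 30.5 and 32.3 CPM in the males and 39.6 CPM in the female, each within the range of the other mice of its sex. Ahr in male mouse 16 (107.6 CPM) was the highest of the male table, but hardly above saline mouse 3 (107.4 CPM). Ahrr stood at 0.773 and 0.528 CPM in the males, the third and the fourth highest of their table, and at 0.0704 CPM in the female, the lowest but 1 of hers. Arnt stood at 87.7 CPM in male mouse 12, the lowest of the males, at 94.4 CPM in male mouse 16 and at 95.7 CPM in the female.

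Among 14 listed other target genes, Nqo1, which encodes a quinone reductase, stood at 9.52 and 12.6 CPM in male mice 12 and 16 and 10.8 CPM in female mouse 16, against at most 5.55 CPM in the other 16 males and 5.4 CPM in the other 17 females. Ugt1a6a, which encodes a glucuronosyltransferase, stood at 76.6 and 90.6 CPM in the males and 63.8 CPM in the female. Gsta2, which encodes a glutathione transferase, was the highest of its table in male 9527+oil mouse 16 (10.4 CPM) and in the female mouse (5.81 CPM). Other listed targets were low in male mouse 16, where Ereg (0.16 CPM) and Nedd9 (194 CPM) were the lowest of the 18 males, and Socs2, highest of the males in mouse 12 (125 CPM), was 92.1 CPM. In male 9527 mouse 12, 5 of the 14 genes ranked first or second in the table against 12.4% of all genes, in male 9527+oil mouse 16 it was 6 against 17.1%, and in female 9527+oil mouse 16 it was 3 against 6.62%. The liver marker Alb was 11.3 CPM and Apoa1 1.74 CPM in male 9527 mouse 12, against at most 0.98 and 0.15 CPM in the other males, and the part of this in its Cyp1a1 was not tested. In the other 2 mice of high Cyp1a1 the sum of the 2 liver markers was 0.325 and 0.845 CPM, within the range of the rest. Male 9527+oil mouse 16 held the lowest sum of alveolar type 2 markers among males (12339 CPM) and the highest of heart muscle (384 CPM) and thymus (31.6 CPM), and male 9527 mouse 12 the highest of alveolar type 2 cells (19605 CPM) and fibroblasts (1883 CPM). The part of these markers in the values of the 3 mice was not tested.

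**Figure D3:**
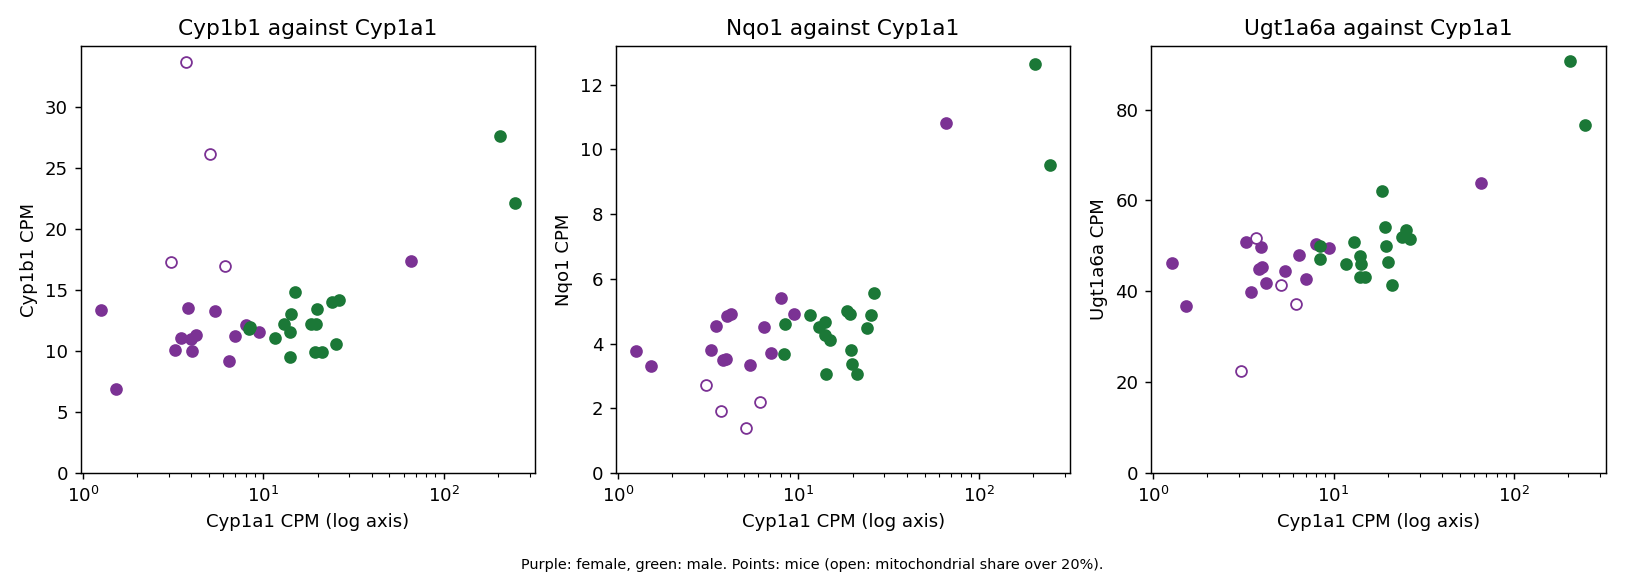
Cyp1b1, Nqo1 and Ugt1a6a in CPM (y axes) against Cyp1a1 in CPM on a log axis (x axes) for each of the 36 mice, females in purple and males in green, open points for libraries over 20% mitochondrial counts. The 3 mice of highest Cyp1a1 have Nqo1 at 9.52 to 12.6 CPM, above all others, which is at most 5.55 CPM.

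Cyp1b1 stood at 14.2, 10.6 and 9.92 CPM in male saline mice and, apart from the 2 males of high Cyp1a1, at 9.53 to 14.8 CPM in the other males. Its log2 fold changes against saline were -0.02 to 0.58 in males (SE up to 0.32), none with an unadjusted p under 0.05. Those for 9527 and 9527+oil, 0.38 and 0.58 with all mice, were 0.013 (SE 0.19) without mouse 12 and 0.074 (SE 0.18) without mouse 16. In females it stood at 10, 13.3 and 33.6 CPM in saline, and the 4 libraries of high mitochondrial share held 16.9 to 33.6 CPM against 6.84 to 17.4 CPM in the other 14. Fold changes against saline in females, -0.83 to -0.38 on the log2 scale (SE up to 0.68), were set against a saline group that holds the highest CPM of the table. This rank of saline mouse 3 depends on the TMM scaling. Before it, the mouse had 261 counts of 17501716, against 493 of 26821292 in 9527+oil mouse 16. Without the 4 libraries the fold changes were -0.22 to 0.26 (SE up to 0.35).

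Aldh3a1 was lower in the oil males, at 14, 15 and 10.4 CPM against 21.4, 22.5 and 15.2 CPM in saline, and no oil mouse reached a saline mouse. The log2 fold change was -0.59 (SE 0.20, 95% interval -1.04 to -0.14), with an unadjusted p of 0.0161 and an adjusted p of 0.475 in edgeR. Macrophage markers were higher in the same oil mice (244 to 345 CPM summed against 167 to 184 CPM) and squamous markers lower (0.234 to 0.412 CPM against 0.44 to 1.33 CPM), and their part in the level of Aldh3a1 was not tested. Against saline the other male groups ran from -0.36 for 9500 to 0.08 for 9527+oil. The value for 9527, -0.17 (SE 0.31) with all mice, was -0.65 without mouse 12 (SE 0.20, edgeR unadjusted p of 0.0107, adjusted p of 0.164), and that for 9527+oil was -0.067 (SE 0.21) without mouse 16. Both mice were chosen on Cyp1a1 and held the highest Aldh3a1 of the males, so lower values follow from leaving them out. In females the libraries of high mitochondrial share held 2.28 to 7.86 CPM of Aldh3a1 and the other 14 held 9.11 to 14.9 CPM, with no overlap, and log2 fold changes against saline were -0.46 to 0.41 (SE up to 0.79). Leaving out the 4 libraries gave -0.44 to 0.02 (SE up to 0.25).

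Tiparp and Arnt moved with the same 4 female libraries, in the opposite direction. Tiparp stood at 81.3 to 116 CPM in them and at 32.2 to 60.5 CPM in the other 14 females, and at 28.4 to 37.4 CPM in all males. Arnt stood at 105 to 260 CPM in the 4 and at 59.4 to 104 CPM in the rest, and at 87.7 to 104 CPM in all males. The separation in CPM depends on the TMM scaling. Before it, Arnt had 1663 counts of 20461789 in oil mouse 6, against 2129 of 21680746 in saline mouse 1. Tiparp had 847 counts of 17655655 in 9527 mouse 11, against 1872 of 30014986 in 9527 mouse 12. Correlations of log2 CPM with the mitochondrial share over the 18 females are given as a description, as the libraries differ in depth and base composition. They were 0.85 for Tiparp, 0.89 for Arnt, 0.74 for Cyp1b1 and -0.93 for Aldh3a1, but -0.15 for Cyp1a1. Log2 fold changes against saline in females ran from -0.80 to 0.14 for Tiparp and from -0.87 to -0.20 for Arnt, and without the 4 libraries from -0.0073 to 0.46 (SE up to 0.30) and from -0.21 to 0.07 (SE up to 0.24). In male lungs, log2 fold changes against saline lay between -0.04 and 0.12 for Tiparp (SE up to 0.11) and between -0.08 and -0.01 for Arnt (SE up to 0.088). In bulk lung, fewer cells of a type and less RNA per cell cannot be told apart.

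**Figure D4:**
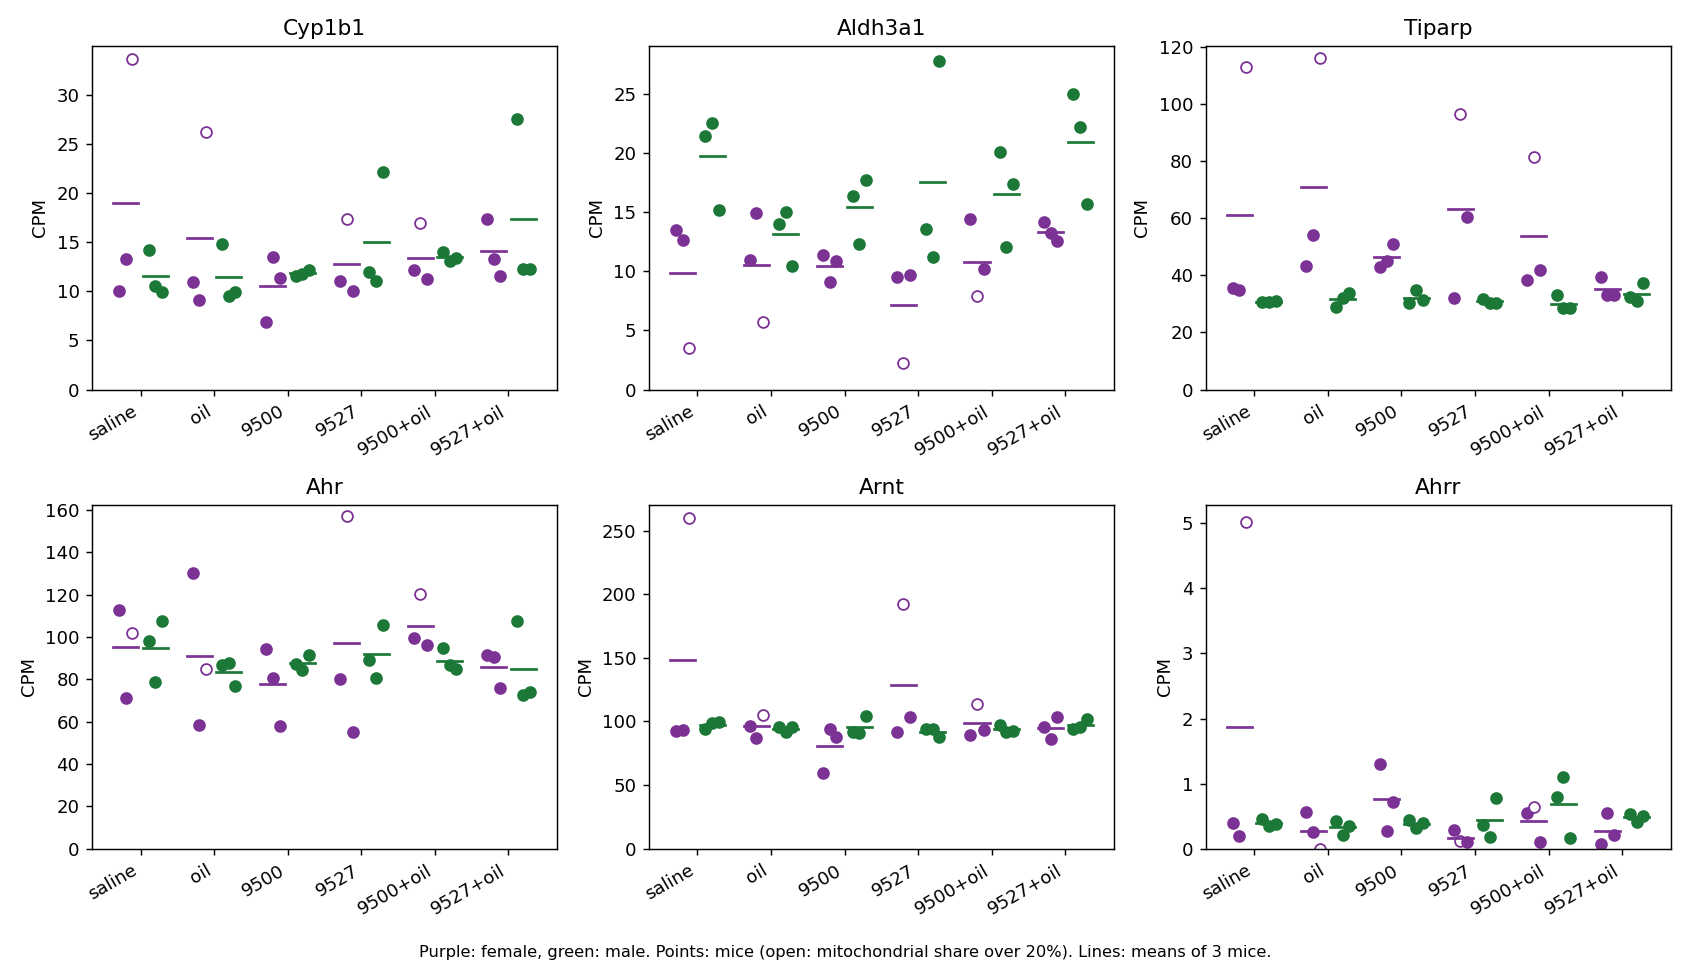
CPM of the 6 other members for each mouse by treatment (females in purple, males in green), open points for libraries over 20% mitochondrial counts and lines for means of 3 mice. The open points hold the highest Tiparp of females, at 81.3 to 116 CPM, and the lowest Aldh3a1, at 2.28 to 7.86 CPM.

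Ahr ran from 54.9 to 157 CPM in females and from 72.5 to 108 CPM in males, with log2 fold changes against saline of -0.29 to 0.10 (SE up to 0.48) and -0.18 to -0.04 (SE up to 0.18). Without the 4 libraries of high mitochondrial share the female values were -0.44 to 0.08 (SE up to 0.40), and without mouse 16 the male value for 9527+oil, -0.17 with all mice, was -0.38 (SE 0.14, edgeR unadjusted p of 0.0256, adjusted p of 0.657). That mouse was chosen on Cyp1a1 and held the highest Ahr of the males, so a lower value follows from leaving it out. Ahrr had 0 to 39 counts in any library. It was 0 in female oil mouse 6, which allows up to 0.189 CPM (3 counts), and 5.03 CPM in female saline mouse 3, a library of high mitochondrial share, against at most 1.3 CPM in all other females and 1.1 CPM in males. It passed the filter on low counts in 2 of 5 female and 3 of 5 male comparisons with saline, with log2 fold changes of -2.19 to -1.23 (SE up to 1.48) and -0.04 to 0.78 (SE up to 0.64). The female values rest on saline mouse 3, as the other saline mice held 0.39 and 0.20 CPM. Without the 4 libraries the value for 9500 was 1.36 (SE 1.10), in the opposite direction, and Ahrr did not pass the filter for 9500+oil.

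In the wider pathway, 12 genes of the receptor complex and its partner family, 14 of 16 other targets and all 5 ligand-making enzymes were listed. In edgeR 1 of them, Ereg, passed an adjusted p of 0.05, in 2 of the 29 comparisons. DESeq2, unlike edgeR, also called Ereg with oil present in females (-2.65, adjusted p = 0.0349) and in males (-1.68, adjusted p = 0.018). Ereg and Areg encode epiregulin and amphiregulin, growth factors for the epidermal growth factor receptor. Ereg stood at 0.19 to 0.57 CPM in male oil mice and 0.20 to 0.33 CPM in male saline mice, and at 3.53, 8.37 and 0.92 CPM in male 9527 mice against 0.16, 0.31 and 0.25 CPM in male 9527+oil mice. In female 9527 mice it was 3.06, 8.55 and 1.91 CPM, and in female 9527+oil mice 0.35, 0.09 and 0.50 CPM. Female saline mice held 0.04, 0.40 and 7.60 CPM, and the values of 7.60 and 8.55 CPM are of libraries of high mitochondrial share. Each 9527 mouse thus lay above each 9527+oil mouse of its sex. The macrophage markers did so too, at 294 to 349 CPM against 171 to 180 CPM in females and 248 to 306 CPM against 212 to 220 CPM in males. Endothelial markers were the other way round in both sexes, at 2716 to 2974 CPM against 3961 to 4477 CPM and 3085 to 3167 CPM against 3585 to 3663 CPM, and the part of these markers in the level of Ereg was not tested. Over both sexes Ereg was lower where oil was present, by a log2 fold change of -2.11 (SE 0.43, edgeR adjusted p = 0.0471), and it differed over the 6 male groups (adjusted p = 0.0293). The first call was lost in 29 of 36 fits that left out 1 mouse, with adjusted p from 0.00784 to 0.119 and values from -2.27 to -1.54. Without the 4 libraries of high mitochondrial share it was -1.60 (SE 0.33, adjusted p = 0.0248). Areg was lower by 0.96 in the same comparison (SE 0.27, adjusted p = 0.298). Against saline in males, 9527 gave 3.97 for Ereg (SE 0.79, adjusted p = 0.0957), 1.27 for Areg (SE 0.29, 0.129), 0.86 for the amino acid transporter gene Slc7a5 (SE 0.23, 0.169) and 0.90 for Il4i1, an amino acid oxidase gene (SE 0.25, 0.172). Oil gave 1.16 for Il4i1 in males (SE 0.37, adjusted p = 0.429), with 7.47 to 18.7 CPM in oil, 7.78 to 11.8 CPM in 9527 and 3.86 to 6.38 CPM in saline mice. For 9527 against saline in males, 12 of 13 other targets tested were higher and 1 lower, with a median of 0.30 against -0.01 over all genes. Of the 13, 3 had an unadjusted p under 0.05 against 13.7% of all genes. Without mouse 12, which has the highest Cyp1a1, 8 were higher and 5 lower, with a median of 0.062, and 4 of the 13 had an unadjusted p under 0.05 against 16% of all genes. Nqo1 (-0.091), Ugt1a6a (-0.17), Gsta2 (-0.60) and Socs2 (-0.0070) were then lower, none with an unadjusted p under 0.05, while Ereg was 4.45 (SE 0.50, adjusted p = 0.00974 in edgeR, with 1.39% of all genes called). In oil against saline in males, 7 were higher and 5 lower of 12, with a median of 0.06.

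**Figure D5:**
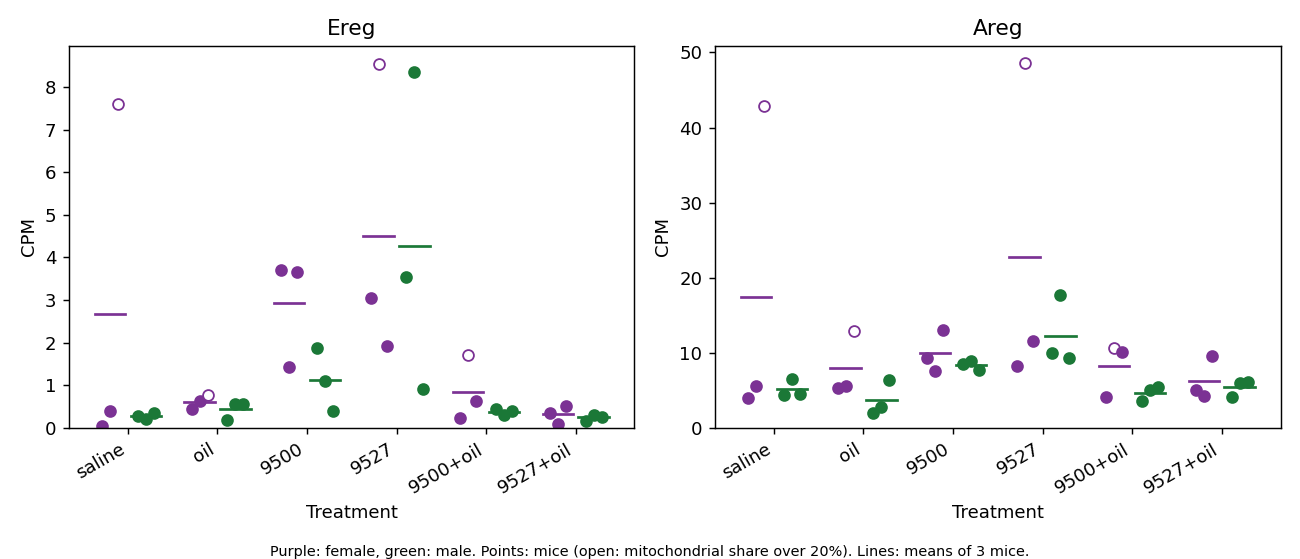
Ereg (left) and Areg (right) in CPM for each mouse by treatment (females in purple, males in green), open points for libraries over 20% mitochondrial counts and lines for means of 3 mice. The 9527 mice of both sexes hold Ereg at 0.92 to 8.55 CPM, above the 9527+oil mice at 0.09 to 0.50 CPM.

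The genes most like a member were those with the highest of the smaller of the 2 Pearson correlations over the 18 mice of each table, among 12758 genes. For Cyp1a1 these were Aox1 (r of 0.68 in females and 0.82 in males), which encodes aldehyde oxidase, and the carboxylesterase genes Ces1f (0.67 and 0.93) and Ces1g (0.60 and 0.84). For Cyp1b1 they were Aldh5a1 (0.78 and 0.79), Aqp4 (0.78 and 0.77) and BC007180 (0.76 and 0.82). For Tiparp they were Gpkow (0.81 and 0.82), Pde3b (0.91 and 0.71) and Dfna5 (0.84 and 0.70). For Aldh3a1 they were Sqstm1 (0.94 and 0.80), Apoc1 (0.84 and 0.80) and Abcc3 (0.89 and 0.79). The female values were computed with the 4 libraries of high mitochondrial share. Over the other 14 females they were 0.63 to 0.83 for the genes named for Cyp1a1, but -0.16 for Aldh5a1, 0.17 for Aqp4 and 0.65 for BC007180, 0.15 for Gpkow, 0.34 for Pde3b and 0.17 for Dfna5, and 0.68 for Sqstm1, 0.44 for Apoc1 and 0.44 for Abcc3. Between members, Cyp1a1 and Cyp1b1 correlated at 0.83 in males and 0.22 in females, and Cyp1a1 and Aldh3a1 at 0.72 and 0.25. Over the 14 females without a high mitochondrial share the values were 0.59 and 0.40. These values, which rest on few high mice, are descriptions over libraries that differ in depth.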

How the data were processed

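Lung RNA of 36 mice was sequenced as stranded, paired-end libraries. Per the study's methods, Salmon estimated reads per GRCm38 transcript and tximport combined them. The authors deposited these expected counts as 2 tables, female and male, with whole numbers only and no scaling. Groups came from the sample labels, and each library is a separate mouse. Rows that share a name (4 per sex, 0.0103% and 0.0128% of counts) were left out, and date-like names (24 per sex) were kept.

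Counts were tested with edgeR 4.0.16 in R 4.3.3 (TMM, filterByExpr, quasi-likelihood test, Benjamini-Hochberg adjustment over all genes tested, threshold 0.05), within a sex for the groups compared and over both sexes with sex as a covariate. CPM were scaled by TMM over 36 libraries, and log2 CPM for correlations used a prior count of 2. Standard errors were taken from the F statistic. DESeq2 1.42.0, limma voom 3.58.1, other scalings, other filters, all groups in one fit, fits without a sex term, without the 4 libraries of high mitochondrial share, without each mouse and, added after seeing the data, without the 3 libraries of highest Cyp1a1 (for the target genes, without male 9527 mouse 12) were tried. The fits were tried on simulated counts for some of the comparisons, none of them within females. The simulation capped the dispersions and held no single high mice, so it does not test values that rest on single mice. Its check on false calls left out DESeq2. The 7 members, the gene lists and the tests were chosen with earlier results of these data known. All members were described, other members' fold changes in full where the unadjusted p was under 0.05. Nqo1, Ugt1a6a, Gsta2, Nedd9, Socs2, Alb and Apoa1 were singled out after their values were seen. Listed markers Adgre1, Krt6a and Ttr and targets Cyp1a2 and Il22 were not analysed here.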

Additional observations from a re-analysis of the deposited data

Results flagged for a closer look

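The response of Cyp1a1 to oil differed between the sexes by -1.30 on the log2 scale (male minus female) and its response to 9500+oil by -1.55, each with an unadjusted p under 0.05 in edgeR but an adjusted p of 1. Female oil and 9500+oil mice averaged 5.18 and 7.06 CPM against 3.01 CPM in saline, and male mice 16.8 and 19.4 CPM against 23.7 CPM. Over the fits that left out 1 mouse the values ran from -1.59 to -0.91 for oil and from -1.84 to -1.15 for 9500+oil. Without the 4 libraries of high mitochondrial share they were -1.48 (unadjusted p of 0.0254) and -1.82 (unadjusted p of 0.00585).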

How the results depend on the processing

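No paired analysis was possible because mouse numbers are shared only between the sexes, never between the groups compared. Among the alternatives, 536 counts of members called were 0 as in the report and 5 were 1, for 9527+oil against 9527 in females under voom (Ahr, 0.56, adjusted p = 0.0485, against -0.20 in edgeR), for oil present against absent in females under DESeq2 (Cyp1a1, 1.63, adjusted p = 0.0424), over the 6 female groups under DESeq2 (Cyp1a1, adjusted p = 0.0017), for 9500 against saline in males under DESeq2 (Cyp1a1, adjusted p = 0.0028) and for 9527 against saline in males without mouse 12 (Cyp1a1, adjusted p = 0.0325). Leaving out 1 mouse gave 0 to 1 members in that last comparison and 0 in all others. Of all genes, 1.39% were called for 9527 against saline in males without mouse 12. The shares under voom and DESeq2 are not given here, so the calls of these tools stand without a background.

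The log2 fold change of Cyp1a1 reversed under voom for 9527 against saline in males (-0.56), 9527+oil against 9527 in males (0.58), oil against saline over both sexes (-0.26), 9527 against saline over both sexes (-0.33) and the sex difference for 9527 (-0.99). It reversed without a sex term for oil (-0.30) and 9500+oil (-0.019) over both sexes, and without the 3 libraries of highest Cyp1a1 for 9527+oil against 9527 in males (0.90). With 1 mouse left out, the values that crossed 0 ran from -0.27 to 0.43 for 9500 and from -0.24 to 0.40 for 9527 in females, from -1.22 to 2.44 for 9527, from -0.32 to 2.23 for 9527+oil, from -2.22 to 2.98 for 9527+oil against 9527 and from -0.67 to 1.07 for oil present in males, from -0.12 to 0.26 for oil and from -0.47 to 1.29 for 9527 over both sexes, and for the sex difference from -1.37 to 2.31 for 9527 and from -3.51 to 0.44 for 9527+oil. The cause was not tested, beyond the single mice named in the report. Ereg with oil present over both sexes lost its call in 29 of 36 such fits and without the 3 libraries of highest Cyp1a1 (adjusted p = 0.101). Against saline in males, 9527 without mouse 12 gave Ereg a call (4.45, adjusted p = 0.00974) and left Areg, Slc7a5 and Il4i1 in their direction with no call. Scaling by the raw library total moved 15 of 84 group means by more than their SD. Without the 4 libraries of high mitochondrial share, values against saline in females reversed for oil (Ahr 0.034, Aldh3a1 -0.017), 9500 (Ahrr 1.36, Tiparp 0.39, Aldh3a1 -0.32), 9527 (Ahr -0.44, Arnt 0.074), 9500+oil (Tiparp 0.18, Aldh3a1 -0.098) and 9527+oil (Cyp1b1 0.26, Arnt 0.028), and without mouse 16 those for 9527+oil in males did for Arnt (0.014) and Aldh3a1 (-0.067). The widest 95% interval of Cyp1a1 within a sex, for 9527+oil against 9527 in males, ran from -3.19 to 2.92.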
